A study of Mus musculus with 4 samples.

Results

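The genes described here carry bile acids across the absorptive cell of the ileum and sense them inside it: the uptake carrier Slc10a2, the binding protein Fabp6, the export carrier subunits Slc51a and Slc51b, the multidrug resistance exporters Abcc2 and Abcc3, the nuclear receptors Nr1h4 and Nr0b2, and the hormone Fgf15. They were chosen by platform gene symbol, and all 9 were found among the 18193 genes of the array, each with 1 probe set (a group of short oligonucleotides for the same transcript). Expression was measured on 4 arrays of RNA from mouse gut epithelium isolated by laser capture, 1 array for each group. The groups were proximal colon and ileum of wild type mice, written as C57/Bl6 in the labels, and the same regions of germ-free mice of that strain, which live without microbes. Each array held RNA pooled from about 16000 captured cells, about 4000 from each of 4 mice, after 2 rounds of amplification from 40 ng. The labels name no age, sex or diet, and hematoxylin staining is mentioned for the germ-free samples alone.

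Bile acids are made from cholesterol in the liver, released into the upper gut and reclaimed mainly in the ileum, where Slc10a2 takes them up at the brush border, Fabp6 binds them in the cytosol and the Slc51a and Slc51b pair releases them towards the blood. Inside the cell they activate Nr1h4, the bile acid receptor FXR, which acts together with the retinoid X receptor and induces Fabp6, Slc51a, Slc51b, Fgf15 and the repressor Nr0b2. Fgf15 travels to the liver and lowers bile acid synthesis. Gut bacteria deconjugate and modify bile acids, so the bile acid pool of germ-free mice is known to differ from that of colonised mice.

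FXR binds an inverted repeat of a short element, and HNF1 factors, which are needed for Slc10a2 expression, bind a palindrome. RefSeq promoters of build GRCm38.p6 were at hand for 7 of the 9 genes, and the 250 bases before the start of transcription were searched on both strands. The windows of the uptake and binding genes are printed because each holds 1 of these motifs, in capitals, and because these genes had the largest upward differences of the 7 bile acid genes measurable in colon. The first window lies at chr11:43601563-43601812 and the second at chr8:5105288-5105537, both on the minus strand and written 5′ to 3′.
Fabp6: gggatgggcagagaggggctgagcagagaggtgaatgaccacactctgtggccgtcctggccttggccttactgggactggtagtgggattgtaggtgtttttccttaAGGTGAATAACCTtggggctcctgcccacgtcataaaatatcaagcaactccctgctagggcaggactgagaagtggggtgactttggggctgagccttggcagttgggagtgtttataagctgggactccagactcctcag
Slc10a2: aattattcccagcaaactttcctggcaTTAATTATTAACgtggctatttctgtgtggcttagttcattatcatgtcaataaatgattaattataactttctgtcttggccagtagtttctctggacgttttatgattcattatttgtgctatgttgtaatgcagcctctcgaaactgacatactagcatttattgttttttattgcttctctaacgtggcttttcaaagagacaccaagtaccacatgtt

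The Fabp6 match fits the inverted repeat of AGGTNA and TNACCT with 1 base between them and runs from 142 to 130 bases before the start. Of 32851 promoter windows of this length, 6 (0.0183%) held that motif. Its open positions were set with the Fabp6 window in view, so the share describes how rare the letters are and tests nothing. In Slc10a2 the match fits the HNF1 palindrome of TTAAT and ATTAAC with 1 base between them, which 20 windows (0.0609%) held, and runs from 223 to 212 bases before the start. No other bile acid gene with a window held either motif. The HNF4 direct repeat, AGGTCA in 2 copies with 1 base between them (11 windows, 0.0335%) and the LRH-1 element CAAGGTCA (438 windows, 1.33%) were in 0 of the 7 windows. A match is a string of letters and shows no binding.

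All values below are quantile-normalized intensities, and differences are of log2 intensity. The floor, under which a value was read as not measurable, was an intensity of 62.4, the median of all values on the 4 arrays. Between 60.6% and 62.1% of genes lay above it on an array. Of the 9 bile acid genes, 6 were above it on all 4 arrays, Nr0b2 on 3, Abcc2 on the 2 ileum arrays, and Fgf15 on none. With 1 array per group a difference between 2 arrays cannot be set against replicates, and precision is limited by having only 4 arrays. As a technical yardstick, the SD of 1 probe set's difference was derived from the brightest 2 probe sets of the same gene. It is the root mean square of their disagreement, divided by the square root of 2. It was 0.32 log2 for germ-free against wild type in colon and 0.23 in ileum. For ileum against colon it was 0.34 in wild type and 0.36 in germ-free mice. The 2647 genes used had 2 probe sets above the 75th percentile of intensity on at least 1 array. Values near the floor, such as those of Nr0b2, are therefore not covered by it. This spread holds nothing of the variation among mice. A difference smaller than it is called within the probe set spread.

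**Figure D1:**
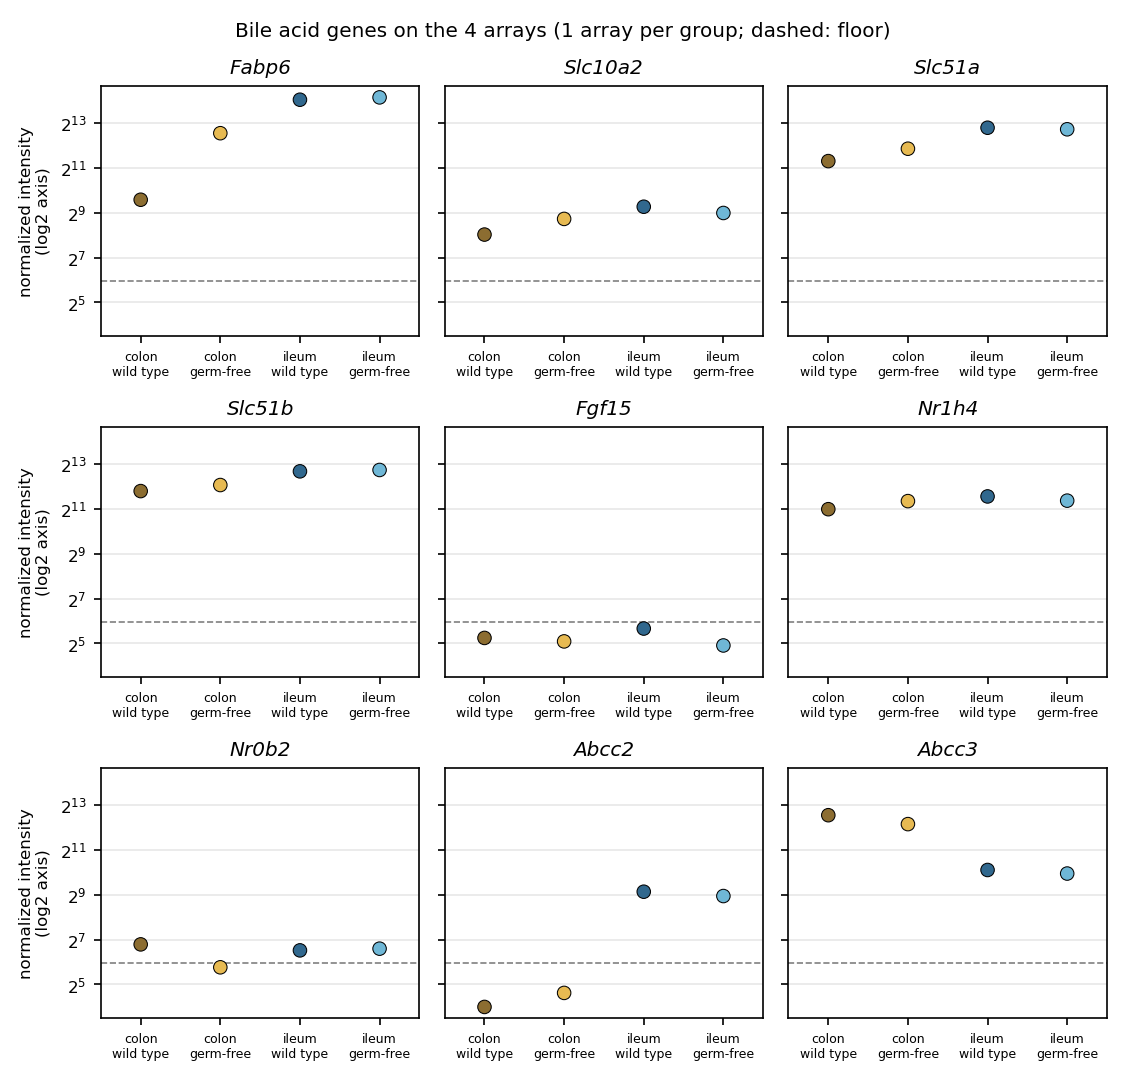
Normalized intensity (log2 axis) of the 9 bile acid genes on each array, 1 point per array, with the floor of 62.4 as a dashed line. Fabp6 stands at 767 on the wild type colon array and at 6008 on the germ-free one, while Abcc3 is the only gene with both colon points above both ileum points by more than 2-fold.

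Slc10a2, the sodium-dependent carrier that takes bile acids up from the gut lumen (probe set 1450245_at), read 261 on the wild type colon array, 424 on the germ-free colon array, 618 on the wild type ileum array and 510 on the germ-free ileum array. Its signal was thus highest in wild type ileum and lowest in wild type colon, and the germ-free arrays lay between. The ileum exceeded the colon 2.37-fold in wild type and 1.20-fold in germ-free mice, the latter within the probe set spread. Without normalization between arrays the germ-free regions stood level, with a log2 difference of -0.01. The neighbours in the order that did not differ beyond the spread were therefore germ-free ileum and germ-free colon.

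Fabp6, which binds bile acids in the cytosol of ileal cells (1450682_at), read 767 in wild type colon, 6008 in germ-free colon, 16920 in wild type ileum and 18189.5 in germ-free ileum. Both ileum arrays were far above both colon arrays, and the colon arrays were far apart. In wild type mice the ileum exceeded the colon 22.0-fold, and in germ-free mice 3.03-fold. Put as a share, the colon signal was 4.54% of the ileal one in wild type and 33.0% in germ-free mice. The ileal values lay at the top of the scale: as deposited, Fabp6 ranked 4 on the wild type and 2 on the germ-free ileum array, at 17571 and 17397 where the highest values were 18156 and 18034. Whether the ileal signal was limited by the range of the scanner was not tested.

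Slc51a and Slc51b encode the subunits of the carrier that releases bile acids across the basolateral membrane. For Slc51a (1451481_s_at) the intensity was 2535 in wild type colon, 3718 in germ-free colon, 7112 in wild type ileum and 6780 in germ-free ileum. For Slc51b (1454854_at) it was 3564, 4297, 6562 and 6847 in the same order of arrays. Both subunits were therefore well above the floor in colon as well as ileum, and in both states the ileum was higher. The regional fold was 2.81 in wild type and 1.82 in germ-free mice for Slc51a, and 1.84 and 1.59 for Slc51b. The 2 ileum arrays did not differ beyond the probe set spread for either subunit, nor did the 2 colon arrays for Slc51b.

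Nr1h4, the receptor FXR (1419105_at), read 2036 in wild type colon, 2614 in germ-free colon, 3020 in wild type ileum and 2652 in germ-free ileum. Its range over the arrays was narrow, and germ-free ileum differed within the probe set spread from both wild type ileum and germ-free colon. The ileum exceeded the colon 1.48-fold in wild type and 1.01-fold in germ-free mice. Nr0b2, the repressor SHP (1449854_at), was near the floor, at 111 in wild type colon, 91.9 in wild type ileum and 96.9 in germ-free ileum, and at 54.4, under the floor, in germ-free colon. Fgf15 (1418376_at) read 38.0 in wild type colon, 34.1 in germ-free colon, 50.8 in wild type ileum and 30.1 in germ-free ileum. All these Fgf15 values were under the floor, so no fold is given for it, and the ileum, where the hormone is known to be made, gave no measurable signal with this probe set.

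Abcc2 and Abcc3 encode exporters of conjugated organic anions, Abcc2 at the apical and Abcc3 at the basolateral membrane. Their regional patterns were opposite. Abcc2 (1450109_s_at) read 16.0 in wild type colon and 24.7 in germ-free colon, both under the floor, against 564 in wild type ileum and 493 in germ-free ileum. The ileum was thus at least 9.03-fold higher in wild type and at least 7.90-fold higher in germ-free mice. Abcc3 (1428988_at) read 6008 in wild type colon, 4560 in germ-free colon, 1104 in wild type ileum and 989 in germ-free ileum. Here the colon was 5.44-fold higher in wild type and 4.61-fold higher in germ-free mice, the reverse of all other measurable bile acid genes but Nr0b2 in wild type mice.

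Between the regions of wild type mice, 4 of the 8 measurable bile acid genes (Fabp6, Abcc2, Slc51a and Slc10a2) were higher in ileum by 2-fold or more, and 1 (Abcc3) was lower by as much. Of all 12000 genes measured in that comparison, 12% were past 2-fold, 6.04% upward and 5.93% downward. In germ-free mice 2 of 8 (Abcc2 and Fabp6) passed 2-fold upward in ileum and Abcc3 passed it downward, where 13.2% of 11986 genes were past 2-fold, 7.37% upward and 5.88% downward. With 1.5-fold as the threshold, the germ-free count was 6 of 8 where 30.6% of genes passed, and with 3-fold the wild type count was 3 of 8 where 5.26% passed. The median log2 difference of the measurable bile acid genes was 1.06 in wild type and 0.65 in germ-free mice, against -0.01 and 0.04 for all measured genes.

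The regions could be tested by taking wild type and germ-free mice as blocks, with limma's additive fit over all 4 arrays and 12431 genes and Benjamini-Hochberg adjustment over all of them. The gene's own part of the error of that fit is the disagreement between the regional differences of the 2 states, with 1 residual degree of freedom. Moderation over genes adds a prior of 7.14 degrees of freedom, so each error rests mostly on other genes. This matters for Fabp6, whose regional differences of 4.46 and 1.60 log2 lay far apart. Variation among mice is not in these errors or in the p-values below. On average over the states, Fabp6 was higher in ileum by 3.03 ± 0.52 log2 (SE, adjusted p = 0.0051 by limma). Slc51a was higher by 1.18 ± 0.16 (adjusted p = 0.0017 by limma) and Slc51b by 0.78 ± 0.12 (adjusted p = 0.0036 by limma). For Abcc2 the fitted difference was 3.08 ± 0.29 with its colon values at the floor, so that its error holds no colon spread (adjusted p = 0.00025 by limma), and Abcc3 was lower in ileum, at -2.32 ± 0.13 (adjusted p = 1.9e-05 by limma). Slc10a2, at 0.75 ± 0.28, missed the threshold (adjusted p = 0.12 by limma), as did Nr1h4, at 0.29 ± 0.16 (adjusted p = 0.26), and Nr0b2, at 0.18 ± 0.26 (adjusted p = 0.71). Thus 4 of 8 bile acid genes were called higher and 1 lower, where 17.1% of all genes were called, 8.18% higher and 8.87% lower, and these 5 went the same way in both states. Slc10a2 was the only further 1 of the 8 with an unadjusted p under 0.05, where 29.4% of all genes had one. Without the intensity trend in the moderation, the adjusted p of Fabp6 became 0.052 and that of Slc51b 0.060, which ends both calls.

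**Figure D2:**
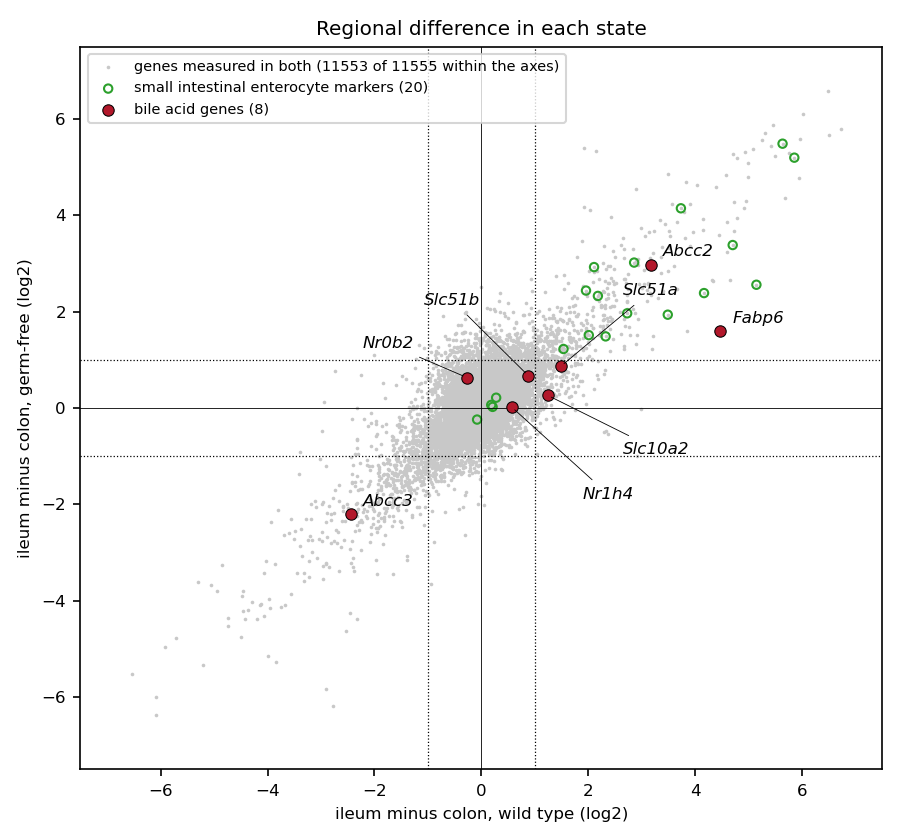
Ileum minus colon (log2) in wild type mice on the horizontal axis and in germ-free mice on the vertical axis, with 1 point per gene measured in both, bile acid genes in red and small intestinal enterocyte markers as green rings; dotted lines mark 2-fold. Fabp6 lies at 4.46 in wild type and 1.60 in germ-free mice, Slc10a2 at 1.24 and 0.26, and Abcc2, a lower bound on both axes, at 3.17 and 2.98.

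Among the bile acid genes, Fabp6 differed most between germ-free and wild type colon, and was 7.83-fold higher on the germ-free array. With values under the floor set to it, no other of the 11746 genes measured there had a larger upward value, but some of those are lower bounds: Adgrd1 read 341 against 26.5, under the floor, on the wild type array. Fabp6 was the only 1 of the 7 bile acid genes measurable in colon that passed 2-fold, where 4.52% of all genes did, 1.29% upward and 3.23% downward. With a threshold of 1.5-fold 3 of the 7 passed (Fabp6, Slc10a2 and Nr0b2), where 17% of all genes did. Of the genes past 2-fold, 28.6% were higher on the germ-free array, a share that became 51.8% as deposited and 21.3% with median scaling. Slc10a2 was 1.62-fold higher, Slc51a 1.47-fold, Nr1h4 1.28-fold and Slc51b 1.21-fold, and all of these but Slc51b exceeded the probe set spread of 0.32 log2. The share of all genes beyond that spread was not counted. From the highest, the 4 genes ranked 477, 837, 1863 and 2581 of 11746. On the other side, Nr0b2 was at least 1.77-fold lower and Abcc3 1.32-fold lower. The median log2 change of the 7 genes was 0.36 against -0.01 for all genes. The scaling between arrays moved the median of all genes from 0.09 as deposited to -0.12 with median scaling. Against that shift, Fabp6 kept a log2 change between 2.76 and 2.98 under all the settings tried, while Slc51b ranged down to 0.01, Nr1h4 to 0.15 and Slc51a to 0.32 with median scaling.

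In the ileum the same genes showed small differences. Of the 8 measurable bile acid genes 0 were past 2-fold on the germ-free array, where 0.928% of 11750 genes were. Slc10a2 was 1.21-fold lower, at a log2 change of -0.28, and was the only 1 of the 8 to exceed the probe set spread of 0.23 log2. That spread is 1 SD, and the share of all genes beyond it was not counted, so this is no result about these genes. From the lowest, Slc10a2 ranked 1580 of 11750. Nr1h4 changed by -0.19, Abcc2 by -0.19, Abcc3 by -0.16, Slc51a by -0.07, Slc51b by 0.06, Nr0b2 by 0.08 and Fabp6 by 0.10. The signs of Fabp6 and Slc51b turned in the values as deposited, to -0.01 and -0.03. The median of the 8 was -0.11 against 0.03 for all genes.

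**Figure D3:**
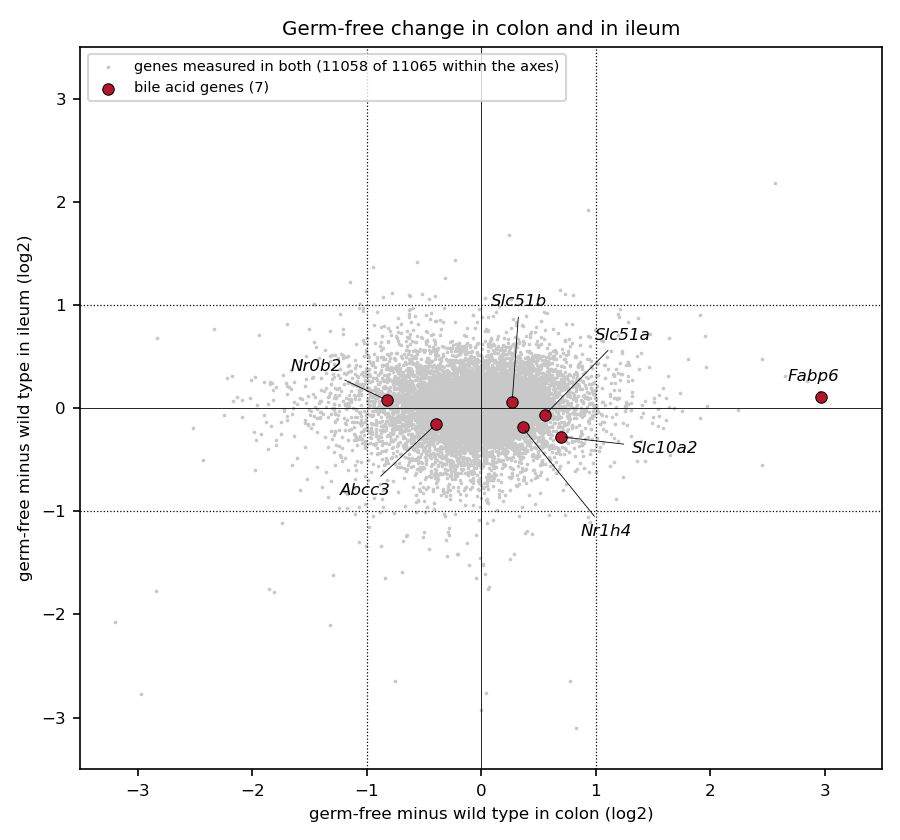
Germ-free minus wild type (log2) in colon on the horizontal axis and in ileum on the vertical axis, with 1 point per gene measured in both regions and the 7 bile acid genes among them in red; dotted lines mark 2-fold. Fabp6 lies at 2.97 in colon and 0.10 in ileum, and no other bile acid gene passes a dotted line.

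Set against its ileum change, the colon change of Fabp6 was larger by 2.86 log2, where the ileum change comes from a probe set at the top of the scale. The same gap was 0.98 for Slc10a2, 0.62 for Slc51a, 0.55 for Nr1h4 and 0.21 for Slc51b. For Abcc3 it was -0.24, and for Nr0b2 -0.90 with germ-free colon at the floor, so that the gap is at least that far below 0. These differences have no test, since 4 arrays in 4 groups leave no error for them. In the additive limma fit, the average change over both regions passed the adjusted threshold for 0 of the 8 bile acid genes, where 0.0241% of all genes passed, and 1 of the 8 (Fabp6) had an unadjusted p under 0.05, where 5.49% of genes did. Fabp6 was at 1.54 ± 0.52 log2 in that fit (adjusted p = 0.85 by limma), an average of a large colon and a small ileum value. No other tool was run on that average.

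Signs of RNA quality moved with the germ-free state and also differed between the regions. The log2 ratio of 5′ to 3′ signal of the Gapdh control probe sets differed by -0.48 in colon and -1.10 in ileum between the germ-free and the wild type array, with shifts of -0.12 and -1.20 for Actb and -0.43 and -0.28 for pyruvate carboxylase. In wild type colon and ileum the ratio was -3.61 and -2.98 for Gapdh and -3.38 and -1.91 for Actb. It went the other way for pyruvate carboxylase, at -0.44 and -0.73. In germ-free colon and ileum the ratios were -4.09 and -4.08 for Gapdh, -3.50 and -3.12 for Actb and -0.87 and -1.01 for pyruvate carboxylase. The part of these shifts in the germ-free and regional differences of the bile acid genes was not tested.

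Markers of the 2 regions mostly went with the labels. The colonocyte gene Car1 read 14383.5 and 12437.5 on the colon arrays against 64.7 and 32.5 on the ileum arrays. The ileal apolipoprotein gene Apoa1 read 34.8 and 245 in colon against 16058 and 16273 in ileum. From colon to ileum, the colonocyte list had 8 of 15 genes past 2-fold downward and 0 upward in wild type mice. In germ-free mice it had 7 of 15 downward and 1 upward, Slc37a2, at 38.7 in colon against 133 in ileum. The small intestinal enterocyte list had 16 of 20 upward in wild type and 16 of 21 in germ-free mice, with 0 downward in either. Of all genes, 5.93% were downward and 6.04% upward in wild type mice, and 5.88% and 7.37% in germ-free mice. Beside the higher Fabp6 value, 5 of the 17 measured small intestinal enterocyte markers passed 2-fold upward in germ-free colon and 0 downward (Apoa1, Apoc3, Slc15a1, Enpep and Dpp4), with a median log2 change of 0.30, where 1.29% of all genes passed upward and 3.23% downward. The summed intensity of the 22 matched markers was 43746 on the wild type colon array, 50795 on the germ-free colon array, 123458 on the wild type ileum array and 119931 on the germ-free ileum array. Over the 20 markers above the floor on both ileum arrays, the median colon signal was 17.5% of the ileal one in wild type and 19.5% in germ-free mice, and 7 stood above the 33.0% of Fabp6 in germ-free mice. Over the 16 of them at least 2-fold higher in ileum in both states, a choice that itself limits the share, the medians were 11.3% and 17.7%, and 3 stood above Fabp6. Of these 16, 3 were not above the floor in germ-free colon (Apoa4, Treh and Mttp), and the rest were, among them Enpep at 2898 and Slc5a1 at 3128. The part of this marker signal in the colon values of the bile acid genes was not tested. Among colonocyte markers 2 of 15 passed 2-fold downward in germ-free colon, Aqp8 and Slc37a2, where 3.23% of all genes did, and the summed intensity of the list was 65816 against 68993.5.

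Markers of cells other than enterocytes also differed. In colon, 3 of 6 tuft cell markers were past 2-fold downward on the germ-free array (Dclk1, Trpm5 and Rgs13), as were 2 of 5 endothelial markers (Kdr and Plvap) and 2 of 5 intraepithelial and T lymphocyte markers (Cd8a and Gzma), where 3.23% of all genes were. Their summed intensities were 1037 against 1899, 514 against 1012 and 903 against 1322, with Pou2f3, Pecam1 and Cd3e among the defining markers under the floor. Of the plasma and B cell list, Igha and Jchain passed 2-fold downward in germ-free colon (2 of 6 measured) and in germ-free ileum (2 of 7). Of all genes, 3.23% passed it downward in colon and 0.928% in either direction in ileum. The summed intensity of the list was 11431 against 15303 in colon and 12921 against 22938 in ileum, while Cd79a and Ms4a1 were under the floor. The fibroblast and smooth muscle list summed to 5314 against 6499 in colon and 5980 against 12120 in ileum, and Myh11 was under the floor. In colon the list was split: of 12 measured markers 1 was past 2-fold upward (Pdgfrb) and 1 downward (Tpm2), where 1.29% and 3.23% of all genes were. In ileum 7 of 15 markers were at least 2-fold lower, against 0.928% of all genes past 2-fold there. Between the wild type regions, 8 of 15 of these markers were past 2-fold upward in ileum, against 6.04% of all genes, and between the germ-free regions 0 of 11, against 7.37%. The part of these cells in the differences of bile acid genes was not tested. In pooled captures, fewer cells of a type and less RNA per cell cannot be told apart.

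The genes whose pattern over the 4 arrays was nearest to that of Fabp6 were found by the Euclidean distance of log2 values centred on each gene's own mean, among 2620 other genes with a range of at least 1 log2. They were the sulfite oxidase gene Suox (distance 0.60 log2), the peptide carrier Slc15a1 (0.84), the peptidase Dpp4 (0.90), the adhesion receptor Adgrd1 (0.93) and the amino acid carrier Slc6a20a (0.99). Suox read 395 and 1866 on the wild type and germ-free colon arrays and 5718 and 5651 on the ileum arrays. Promoter windows were at hand for 4 of the 5, and 0 held the inverted repeat found in Fabp6. Only 0.0183% of all windows held it, so a count of 0 says nothing about these genes. The nearest to Slc10a2 were Il22ra1 (0.03), B230208B08Rik (0.05), Gsr (0.10), Abcd4 (0.11) and Tob2 (0.12). Il22ra1, a subunit of the interleukin 22 receptor, read 450 and 716 in colon and 1073 and 865 in ileum. With 4 arrays and a range of 1.24 log2 for Slc10a2, many genes lie close by such a measure.

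**Figure D4:**
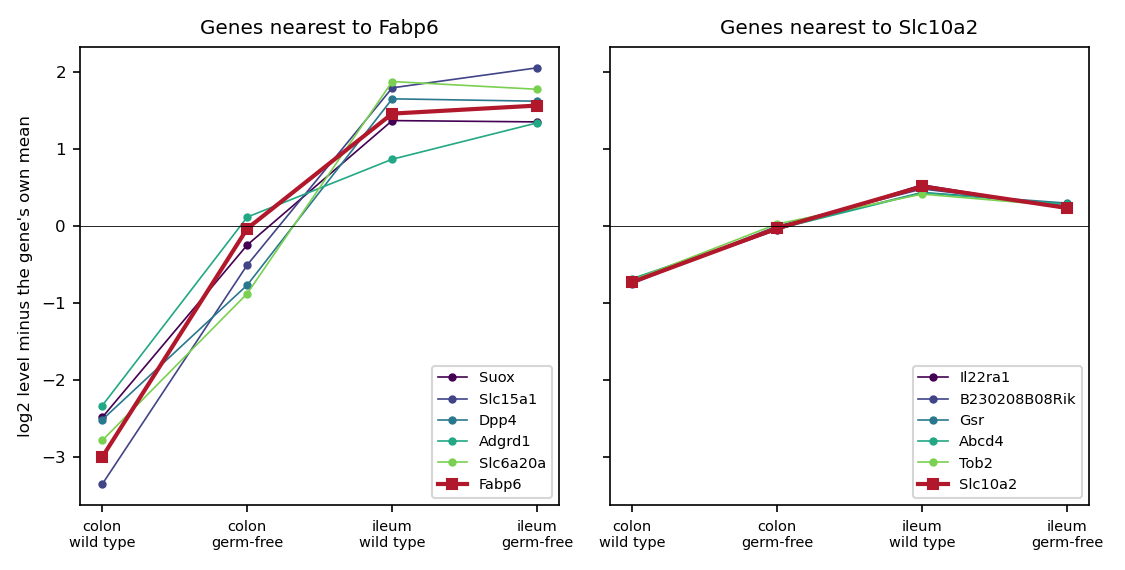
Log2 level minus the gene's own mean (vertical axis) on the 4 arrays for Fabp6 and its 5 nearest genes at left, and for Slc10a2 and its 5 nearest genes at right, 1 point per gene and array. The left genes rise from wild type colon over germ-free colon to ileum, and the right genes keep within 0.12 log2 distance of Slc10a2.

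Other genes of bile acid transport and metabolism were read from lists given in the processing notes. Of 12 further bile acid and organic anion transporters tested over both states, 3 were higher (Abcg2, Slco2b1 and Slco4a1) and 1 lower (Abcc1) in ileum by the additive limma fit, where 17.1% of all genes were called. Abcc1, a relative of Abcc2 and Abcc3, read 565 and 579 in colon against 140 and 131 in ileum. The liver uptake carrier Slc10a1 was above the floor on the wild type colon array alone, at 77.2, and the liver export pump Abcb11 on none. For germ-free against wild type, 0 of these transporters were past 2-fold in colon (of 11 measured) or in ileum (of 8). Of all genes 4.52% were past it in colon and 0.928% in ileum, so that few or none would be looked for in lists this short. Of 11 genes of bile acid synthesis and conjugation, 5 were higher (Acox2, Amacr, Baat, Hsd17b4 and Slc27a2) and 2 lower (Cyp27a1 and Cyp39a1) in ileum, against the same 17.1%. Baat, which conjugates bile acids to taurine, was under the floor on both colon arrays and at 229 and 212 in ileum. Acox2 was also under it in colon, at 60.2 and 49.7, and at 104 and 118 in ileum. Both genes entered the fit by their ileum values alone. Their colon values were set to the floor, so that their errors hold no colon spread.

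Of 9 genes measured in colon that oxidise or conjugate bile acids for disposal, 2 were past 2-fold and none of these upward, where 4.52% of all genes were past it. Cyp3a11 and Cyp3a25, both bile acid hydroxylases, were lower in germ-free colon, at 37.6 against 194 and at 34.3 against 1234, with both germ-free values under the floor. Over both states, 4 of 10 were higher in ileum (Cyp3a11, Cyp3a25, Sult2b1 and Ugt2b36) and 2 lower (Cyp3a13 and Papss2), where 8.18% and 8.87% of all genes were called. Among 10 other receptors of bile acid signalling, 1 was called lower in ileum by the fit, where 8.87% of all genes were, and 0 higher. This was the vitamin D receptor Vdr, at 3764 and 4041 against 5494 and 5940 in colon. The oxysterol receptor Nr1h3 alone of the 10 was at least 2-fold higher in wild type ileum, where 6.04% of all genes were. S1pr2, a receptor for sphingosine 1-phosphate and conjugated bile acids, was at 70.0 in germ-free colon against 141 in wild type colon. It alone of the 10 was at least 2-fold lower there, where 3.23% of all genes were. Klb and Fgfr4, which together receive the Fgf15 signal, lay between 56.2 and 118 on all arrays. The lowest of these values, Klb in wild type ileum, was under the floor.

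Among 16 transcription factors, 2 were higher in ileum over both states (Hnf4g and Gata5) and 2 lower (Jun and Ppargc1a), near the 17.1% of all genes called. Hnf4g, a nuclear receptor of enterocytes, read 268 in wild type colon, 560 in germ-free colon, 2012 in wild type ileum and 1596 in germ-free ileum, and was the only 1 of the 16 past 2-fold in germ-free against wild type colon, where 4.52% of all genes were. Foxa2 was at least 2-fold lower in germ-free ileum than in germ-free colon. Of 6 measured further genes reported as FXR targets in the gut, Il18 alone was past 2-fold in colon, where 4.52% of all genes were. It read 276 on the germ-free and 760 on the wild type colon array, opposite in direction to Fabp6. In ileum Il18 read 914 on the germ-free and 588 on the wild type array. The relatives of Fabp6 that bind fatty acids did not share its colon value: Fabp2 read 13235 and 14524 in colon and 15065 and 15191 in ileum, and Fabp1 read 205 and 114 in colon and 885 and 864 in ileum. Fabp4, a gene of fat and vessel cells, was at 1190 in wild type ileum and 88.4 in germ-free ileum. Of the other Abcc transporters, Abcc6 was at least 2-fold higher in wild type ileum than colon, and Abcc9 was at 145 in wild type ileum and at 70.4 in germ-free ileum.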

How the data were processed

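The authors deposited probe set intensities on a linear scale, for which the series' design text names dCHIP2004 without its options for background, model or normalization. Of 45101 probe sets, 64 controls were set aside. Values under 1 were set to 1, log2 values were quantile-normalized over the other probe sets, and values under the pooled median (62.4) were set to it. Only the 34945 probe sets with 1 gene symbol in the platform annotation were used, and a gene was read from its brightest probe set. A comparison took in the genes above the floor on either of its arrays, and where the other value was floored the fold is a bound.

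Differences between 2 arrays have no test, and a 2-fold difference was counted. The additive fit of region and state used limma 3.58.1 (lmFit, and eBayes with trend) in R 4.3.3, with a threshold of 0.05 on the adjusted p. Both steps were tested on simulated data. The members, the gene lists and the tests were chosen with earlier results of these data known. Genes to be named were the 9 members, the members of the other bile acid lists past 2-fold in any comparison (otherwise up to 4 of the highest) and the 5 nearest in pattern; further genes, such as Slc10a1, Klb and those called by the fit alone, were added after their values were seen. The lists were: other bile acid and organic anion transporters; bile acid synthesis and conjugation; oxidation, sulfation and glucuronidation; other receptors; transcription factors; other reported FXR targets; other fatty acid binding proteins; other Abcc transporters; and cell type markers. The alternatives were the values as deposited, median scaling, other floors, other choices of probe set, other fold thresholds and moderation without the trend.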

Additional observations from a re-analysis of the deposited data

Results flagged for a closer look

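The germ-free change had opposite signs in colon and ileum for 4 of the 7 bile acid genes measured in both regions. The share of all genes with opposite signs was not counted, so the count is no result about these genes. The difference was not tested, with 1 array on each side. For Slc10a2 the change was 0.70 log2 in colon and -0.28 in ileum, a gap of 0.98, and both exceeded the probe set spread of their region. For Slc51a it was 0.55 and -0.07 (gap 0.62), for Nr1h4 0.36 and -0.19 (gap 0.55), and for Nr0b2 -0.82, a bound, and 0.08 (gap -0.90). The ileum values of Slc51a, Nr1h4 and Nr0b2 all lay within the probe set spread.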

How the results depend on the processing

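The labels carry no replicate numbers to pair arrays by, and with 1 array per group none was left out; the additive fit took the state as the block. Counts of bile acid genes past 2-fold stayed within 1.5 times the reported count with the exceptions given here. In colon the germ-free count of 1 became 2 with the floor at the 25th percentile and 2 with no floor, both by Nr0b2 (log2 -1.02), and 3 with a 1.5-fold threshold. For these other floors, and for the probe set choice and the fit without trend below, the share of all genes called was not counted. Those changes in count are therefore no result about the bile acid genes. In wild type ileum against colon the count of 5 became 3 at 3-fold, and 3 with probe sets of 1 transcript alone, which leaves out Slc51a and Abcc2. In germ-free ileum against colon the count of 3 became 6 at 1.5-fold. For the additive fit, 5 called genes became 3 without the intensity trend and 3 with probe sets of 1 transcript alone. The lower bound of Abcc2 moved with the floor, from 1.12 to 5.14 log2 in wild type and from 0.93 to 4.32 in germ-free mice. No called value changed sign under the alternatives run. Signal over background limits Fgf15, Nr0b2 and the colon values of Abcc2.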
